A study of Mus musculus with 6 samples.

Results

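Transcripts of 39 genes that mark macrophages and other myeloid cells were measured in 6 mouse ovarian tumours, 3 grown under estradiol (E2) and 3 under placebo. The members were a fixed list of gene symbols, each read from a probe set that the platform annotation assigns to 1 gene, with the brightest probe set standing for a gene. All 39 listed genes were measured, each by 1 such probe set, among 19937 genes in all. The tumours came from MASE2 cells, which were drawn from the ascites of a tgCAG-LS-TAg mouse that had itself received E2. In that transgenic model an adenovirus carrying Cre, placed in the ovarian bursa, turns on the SV40 large and small T antigens in ovarian surface epithelium. Every tumour therefore shares this 1 T antigen driven cell source, and each grew in a SCID mouse that received an E2 or a placebo pellet when the cells were injected. SCID mice lack mature T and B cells and keep their myeloid cells, so a myeloid transcript in the tumour can come from the host. The labels give neither the age of the mice nor a day of collection, since tumours were taken at a loss of wellness. Values are log2 intensities on single-colour arrays, 1 array per tumour, and 3 arrays a group limit the precision of each.

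Macrophages are phagocytes that descend from embryonic precursors or from blood monocytes and depend on the colony-stimulating factor 1 receptor for survival. They engulf particles through Fc and complement receptors, digest them in lysosomes, and differ between tissues in the scavenger receptors that they carry. In ovarian tumours they are among the most abundant host leukocytes. The members were arranged by role into 6 classes, namely leukocyte-wide genes, pan-macrophage genes, complement C1q and Fc receptors, activation and tumour-associated genes, resident-type and scavenger receptors, and receptors of monocytes and granulocytes.

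The array of placebo replicate 3 stood apart. Over the 19937 genes it correlated with each remaining array at a Pearson r of 0.857 to 0.865, while the remaining 5 correlated with one another at 0.960 to 0.994. All 15 genes of an intestinal lining list were highest on this array, and the mean log2 level of that list was 10.57 there against 4.36 to 4.63 on the other 5 arrays. Most of the myeloid genes were low on it, so counts of genes past the threshold are given with all 6 arrays and without placebo replicate 3. For a gene lowest there among the placebo tumours, leaving this array out lowers E2 minus placebo by construction. The counts without it are therefore no separate support for a fall. The part of the intestinal signal in the low myeloid values on this array was not tested. On all 6 arrays the 3 label genes Cd68, Csf1r and Adgre1 lay above the array's median gene (5.26 to 5.41 log2), except Adgre1 on E2 replicate 2 (5.18 log2). On placebo replicate 3 Adgre1 lay only just above it (5.38 against 5.31 log2).

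Most of the myeloid genes had a lower mean under E2, while the mean level over the set overlapped between the groups. By that level placebo replicate 3 (5.96 log2) lay below E2 replicates 1 and 3 (5.99 and 6.02 log2). Of the 39 genes, 34 had a lower mean and 5 a higher mean in the E2 tumours, and the median difference, E2 minus placebo, was -0.69 log2 against -0.01 log2 over all genes. With all 6 arrays 3 of the 39 fell and 0 rose at a limma adjusted p under 0.05, where 0.326% of all genes fell and 1.06% rose. At an unadjusted p under 0.05, 15 were lower and 1 was higher, against 1229 and 2069 of the 19937 genes. Those counts over all genes also stand beside the class and list counts given below at that p for all 6 arrays. At that p, counts over all genes are given only for this fit and the fit without placebo replicate 3. Without placebo replicate 3, 30 of the 39 fell and 1 rose, where 5.21% of all genes fell and 6.4% rose, and the median difference was -0.99 log2. In that fit 36 of the 39 had a lower mean. At an unadjusted p under 0.05, 30 were lower and 2 higher, against 2287 and 2699 of the 19937 genes. Placebo replicate 3 was the lowest placebo array in 30 of the 39, against 8850 of all 19937 genes. Leaving it out lowers E2 minus placebo in those 30 by construction. In 15 genes every E2 value lay below every placebo value, a pattern that 11.4% of all genes showed. In 1 gene, Arg1, every E2 value lay above every placebo value, as in 14.9% of all genes. In this bulk RNA, fewer macrophages in a tumour and less of these RNAs per macrophage cannot be told apart.

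**Figure D1:**
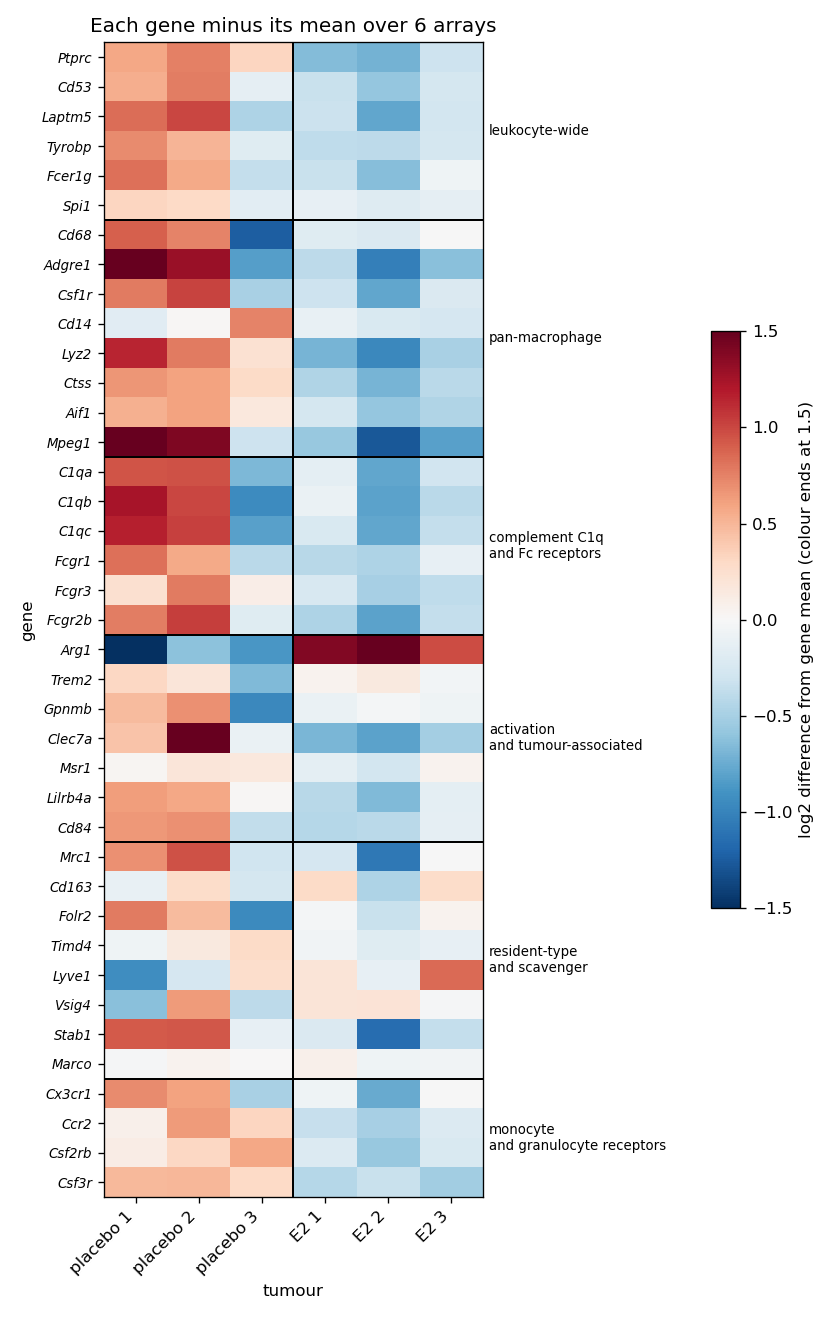
Each row is 1 of the 39 myeloid genes and each column 1 tumour, coloured by the log2 difference from the gene's mean over 6 arrays, with colours ending at 1.5 log2 units and lines between the 6 classes. Placebo replicates 1 and 2 are high for most genes, placebo replicate 3 is the lowest placebo array in 30 of 39, and Arg1 is high on the 3 E2 arrays.

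The spread among arrays had a regular form. Placebo replicate 3 was the lowest of the placebo arrays in 30 of the 39 genes and the highest in 4 (Cd14, Timd4, Lyve1 and Csf2rb). Over all 19937 genes it was the lowest placebo array in 8850 and the highest in 7590. Within the E2 group, replicate 2 was the lowest array in 32 of the 39, against 8595 of all 19937 genes. The mean log2 level over all 39 genes was 6.65, 6.82 and 5.96 in placebo replicates 1, 2 and 3 and 5.99, 5.71 and 6.02 in E2 replicates 1, 2 and 3. Placebo replicate 3 thus sat within the range of the E2 tumours by this mean, while placebo replicates 1 and 2 sat above all of them. The genes differed in how far that array departed from the other placebo arrays, with a difference from their mean of -2.26 log2 for Adgre1 and 0.86 log2 for Lyve1 at the ends.

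The promoters of these genes were searched for sequence features, which the choice of members did not use. The transcription factor PU.1, encoded by the member Spi1, drives the myeloid programme and binds sites with the core GAGGAA. The 250 bases before the transcription start were searched on both strands in RefSeq promoters of build GRCm38.p6, in which 28 of the 39 genes had 32 promoters. Of these, 19 (59.4%) held the core, against 23.3% of the 32851 promoters in the table. The 19 belong to 17 of the 28 genes, since Clec7a and Fcgr3 each have overlapping promoters that hold the same match. The core was not in the windows of the other 11 genes with a promoter, Mpeg1, Lyz2, Fcer1g, Cd163 and Ccr2 among them, and no test of the shares was made. The 17 genes with a match were Aif1, C1qb, C1qc, Cd53, Cd68, Clec7a, Csf3r, Ctss, Fcgr1, Fcgr3, Laptm5, Marco, Mrc1, Ptprc, Stab1, Trem2 and Vsig4. The full oestrogen response element, GGTCA and TGACC with 3 bases between them, was in 0 of the 32 and in 0.0639% of all promoters, which says only that these letters are not in the windows searched. The STAT6 site, TTC and GAA with 4 bases between them, was in 9.38% of the member promoters and 5.85% of all. The C/EBP site, TTGC and AA with 2 bases between them, was in 9.38% and 9.56%. A repeat of GAAA with 2 bases between, bound by interferon regulatory factors, was in 6.25% and 2.98%, and TATAAA was in 9.38% and 12.4%. The STAT6, interferon regulatory factor and PU.1 patterns can share bases with one another. A match describes these letters only and does not show binding. The following 250-base promoters, written 5′ to 3′ on the gene's strand, belong to the 3 genes that fell with all 6 arrays, to the label gene Cd68, to Mrc1, which had 3 matches, and to Mpeg1, which had the lowest difference of the 39 and 0 matches. Capitals mark the core or its reverse complement TTCCTC.
Csf3r (chr4:126024409-126024658, plus strand): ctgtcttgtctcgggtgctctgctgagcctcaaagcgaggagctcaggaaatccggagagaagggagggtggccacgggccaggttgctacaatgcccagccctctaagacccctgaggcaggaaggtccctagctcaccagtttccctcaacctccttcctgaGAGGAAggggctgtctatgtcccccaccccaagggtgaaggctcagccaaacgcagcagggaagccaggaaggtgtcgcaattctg
Ctss (chr3:95526536-95526785, plus strand): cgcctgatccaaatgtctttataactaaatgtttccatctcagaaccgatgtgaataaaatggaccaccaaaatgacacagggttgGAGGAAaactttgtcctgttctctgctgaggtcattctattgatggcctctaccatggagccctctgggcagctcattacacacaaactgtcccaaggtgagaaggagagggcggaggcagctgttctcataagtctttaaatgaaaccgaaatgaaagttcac
Ptprc (chr1:138175306-138175555, minus strand): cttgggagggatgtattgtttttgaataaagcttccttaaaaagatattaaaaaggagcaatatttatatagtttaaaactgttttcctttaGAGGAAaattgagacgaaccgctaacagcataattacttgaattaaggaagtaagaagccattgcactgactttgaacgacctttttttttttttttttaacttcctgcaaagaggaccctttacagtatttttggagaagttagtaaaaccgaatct
Cd68 (chr11:69666171-69666420, minus strand): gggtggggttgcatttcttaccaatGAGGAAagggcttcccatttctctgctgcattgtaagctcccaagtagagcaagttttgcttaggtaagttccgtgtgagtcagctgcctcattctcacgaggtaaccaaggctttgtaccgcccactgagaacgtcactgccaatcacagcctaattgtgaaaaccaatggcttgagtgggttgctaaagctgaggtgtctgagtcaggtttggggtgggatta
Mrc1 (chr2:14229164-14229413, plus strand): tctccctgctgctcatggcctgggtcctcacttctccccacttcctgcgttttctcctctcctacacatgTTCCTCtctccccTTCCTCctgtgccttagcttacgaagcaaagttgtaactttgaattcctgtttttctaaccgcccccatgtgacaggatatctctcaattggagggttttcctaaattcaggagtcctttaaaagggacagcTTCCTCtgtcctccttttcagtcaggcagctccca
Mpeg1 (chr19:12460520-12460769, plus strand): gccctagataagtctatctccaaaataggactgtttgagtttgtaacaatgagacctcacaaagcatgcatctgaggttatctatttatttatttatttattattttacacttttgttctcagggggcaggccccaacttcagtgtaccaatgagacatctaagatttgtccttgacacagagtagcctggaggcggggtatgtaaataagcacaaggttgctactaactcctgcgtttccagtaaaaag
In Csf3r the match begins 86 bases before the start, in Ctss 164, in Ptprc 158 and in Cd68 225. In Mrc1 the 3 matches lie on the opposite strand, 35, 167 and 180 bases before the start. For Ptprc, which has a pair of overlapping promoters in the table, the one with a match is shown.

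Of the 6 leukocyte-wide genes, which are found in several kinds of white blood cell, all had lower means under E2, 1 passed the test with all arrays (Ptprc), and 3 had overlapping groups (Laptm5, Fcer1g and Spi1). Ptprc, which encodes CD45, a phosphatase on the surface of every nucleated blood cell, measured 6.29, 6.47 and 6.04 in the placebo tumours and 5.06, 5.0 and 5.40 in the E2 tumours. The 2 groups did not overlap. Ptprc fell by 1.11 on the log2 scale (standard error, SE, 0.16, limma adjusted p = 0.0388), a 2.16-fold difference between 6.26 ± 0.22 and 5.15 ± 0.21 (SD, n = 3). Cd53, a tetraspanin of leukocytes, measured 7.59, 7.82 and 6.92 with placebo and 6.72, 6.47 and 6.78 with E2. Its groups did not overlap, but placebo replicate 3 lay only just above the E2 tumours and the difference of -0.79 log2 did not pass (SE 0.24, adjusted p = 0.198). Laptm5, a lysosomal membrane protein of blood cells, differed by -0.91, and Tyrobp and Fcer1g, the adaptors that signal for activating receptors, by -0.69 each. Spi1, the gene of PU.1, had the smallest difference of this class, -0.31 log2 (adjusted p = 0.357). With placebo replicate 3 left out all 6 genes of the class fell, by 0.47 (Spi1) to 1.38 (Laptm5) on the log2 scale.

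Among the 8 pan-macrophage genes Ctss passed the test, and the label genes did not with all 6 arrays. Ctss encodes cathepsin S, the protease that trims the invariant chain in antigen presentation. It measured 9.40, 9.35 and 9.03 with placebo and 8.30, 8.04 and 8.33 with E2. All 3 placebo tumours, replicate 3 included, lay above the E2 tumours. The fall of Ctss was 2.05-fold (difference -1.04 log2, SE 0.14, limma adjusted p = 0.0324). Cd68, an endosomal glycoprotein of phagocytes, measured 8.68, 8.53 and 6.54 with placebo and 7.60, 7.57 and 7.77 with E2. The E2 tumours were alike and lay between placebo replicate 3 and the other placebo tumours. Its difference was -0.27 log2 (SE 0.57, 95% confidence interval -1.65 to 1.11, adjusted p = 0.840). Without placebo replicate 3 Cd68 fell by 0.96 (SE 0.11, adjusted p = 0.00140).

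Adgre1, which encodes the adhesion receptor recognised by the standard antibody for mouse macrophages, measured 7.78, 7.5 and 5.38 with placebo and 5.82, 5.18 and 5.58 with E2. Here placebo replicate 3 lay inside the E2 range. The difference was -1.36 log2 (SE 0.64, adjusted p = 0.357), and without that array Adgre1 fell by 2.11 (SE 0.18, adjusted p = 0.000514), a 4.33-fold difference. Csf1r, the receptor for colony-stimulating factor 1 and interleukin 34, measured 8.21, 8.45 and 6.94 with placebo and 7.13, 6.65 and 7.21 with E2. It had the same pattern, with a difference of -0.87 log2 (SE 0.41, adjusted p = 0.360) and a fall of 1.33 without placebo replicate 3 (adjusted p = 0.00288).

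Mpeg1, which encodes the pore-forming perforin-2 of phagocytes, had the largest difference of the 39 below 0. It measured 8.39, 8.24 and 6.52 with placebo and 6.27, 5.56 and 6.03 with E2. The groups were separate, by a narrow margin at placebo replicate 3. The difference was -1.77 log2 (SE 0.52, adjusted p = 0.182), and without that array Mpeg1 fell by 2.36, a 5.15-fold difference (adjusted p = 0.000362). Lyz2, the lysozyme of myeloid cells, measured 10.34, 9.98 and 9.43 with placebo and 8.51, 8.24 and 8.71 with E2, a difference of -1.43 log2 that missed the threshold (SE 0.25, adjusted p = 0.0635). The close relative Lyz1, made by Paneth cells of the gut, measured 12.61 in placebo replicate 3 and 7.47 and 7.49 in the other placebo tumours, and probes of these 2 genes may share sequence. The separate value of Lyz2 is therefore uncertain, above all on that array. Aif1, an actin-binding protein of macrophages, differed by -0.86 (SE 0.15, adjusted p = 0.0630), also with separate groups. Cd14, the lipopolysaccharide co-receptor, went another way, since its highest value, 6.19, was in placebo replicate 3 and the other 5 arrays lay between 5.19 and 5.47. Without placebo replicate 3, 7 of the 8 pan-macrophage genes fell and Cd14 did not pass (difference -0.12, adjusted p = 0.540).

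**Figure D2:**
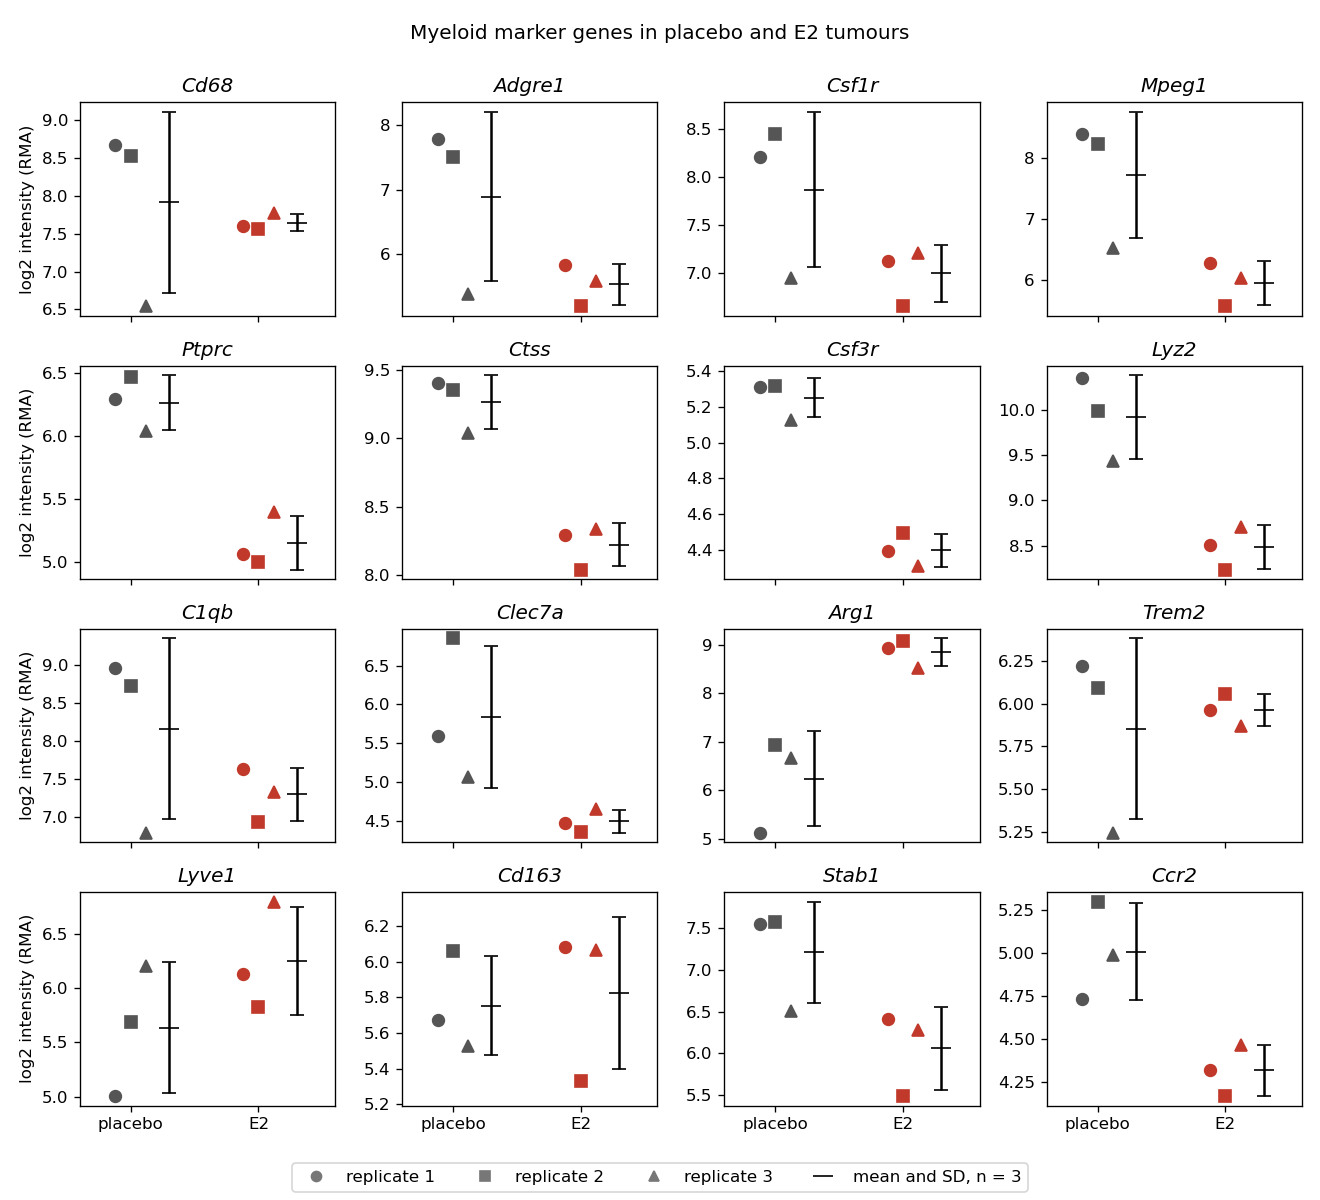
Each panel shows 1 gene, with its log2 intensity on the vertical axis, placebo tumours in grey, E2 tumours in red, a symbol for each replicate number, and the group mean with SD (n = 3) in black; vertical axes differ between panels. In Ptprc, Ctss and Csf3r placebo replicate 3 (triangle) stays above the E2 tumours, in Cd68 and C1qb it lies below them, in Adgre1 and Csf1r it lies within their range, and Arg1 is higher in the 3 E2 tumours.

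The 6 complement and Fc receptor genes all had lower means under E2, and placebo replicate 3 was the lowest placebo array for each of them. C1qa, C1qb and C1qc encode the chains of C1q, the recognition unit of the classical complement pathway, which macrophages themselves produce. C1qb measured 8.96, 8.73 and 6.79 with placebo and 7.63, 6.93 and 7.33 with E2. Placebo replicate 3 was the lowest of the 6 arrays, as it was for C1qc, while for C1qa it was second to E2 replicate 2. The differences were -0.81, -0.86 and -0.92 log2 for C1qa, C1qb and C1qc (adjusted p = 0.451, 0.509 and 0.457), and without placebo replicate 3 these genes fell by 1.36, 1.55 and 1.55. Fcgr2b, the inhibitory receptor for immunoglobulin G, measured 7.07, 7.34 and 6.12 with placebo and 5.85, 5.50 and 5.94 with E2. Its groups did not overlap, and the difference was -1.08 log2 (SE 0.33, adjusted p = 0.190). The activating receptor Fcgr3, measured at 5.51, 6.06 and 5.38 with placebo and 5.03, 4.77 and 4.90 with E2, also had separate groups (difference -0.75, SE 0.19, adjusted p = 0.142). Fcgr1, the high-affinity receptor, differed by -0.66. In limma 0 of the 6 genes of this class passed with all arrays, 2 had an unadjusted p under 0.05, and all 6 fell without placebo replicate 3. Fc receptor genes lie in a family of close relatives, so probes may be shared between Fcgr2b and Fcgr3.

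Genes of activated and tumour-associated macrophages did not share 1 direction. Arg1 encodes arginase 1, which splits arginine and is high in alternatively activated macrophages, and which hepatocytes and some other cells also make. It measured 5.13, 6.93 and 6.67 with placebo and 8.93, 9.08 and 8.52 with E2. Every E2 tumour was above every placebo tumour, and placebo replicate 1 was the lowest of all. The difference was 2.60 log2 (SE 0.48, 95% confidence interval 1.43 to 3.77), or 6.07-fold, and missed the threshold with all 6 arrays (limma adjusted p = 0.0704). Arg1 passed without placebo replicate 3 (2.81 log2, adjusted p = 0.00675) and without placebo replicate 1 (2.05 log2, adjusted p = 0.0429). It was the 1 member of the 39 that rose in either fit.

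Trem2, a lipid-sensing receptor of macrophages in tumours and adipose tissue, measured 6.22, 6.09 and 5.25 with placebo and 5.96, 6.05 and 5.87 with E2. The E2 values were close to those of placebo replicates 1 and 2. Its difference was 0.11 log2 with all arrays (95% confidence interval -0.53 to 0.75) and -0.19 without placebo replicate 3 (adjusted p = 0.290). Gpnmb, a glycoprotein of lipid-laden macrophages, was within 0.12 log2 between the group means with all arrays (difference -0.12, adjusted p = 0.909) and fell by 0.64 without placebo replicate 3. Clec7a, the beta-glucan receptor dectin-1, measured 5.6, 6.85 and 5.07 with placebo and 4.48, 4.37 and 4.66 with E2. The placebo tumours were widely spread but all lay above the E2 tumours (difference -1.34, SE 0.44, adjusted p = 0.219). Lilrb4a, an inhibitory receptor, measured 6.45, 6.40 and 5.84 with placebo and 5.40, 5.16 and 5.67 with E2, again with separate groups (difference -0.82, SE 0.21, adjusted p = 0.141). Cd84 and the scavenger receptor gene Msr1 differed by -0.64 and -0.24. The class median was -0.24 log2, with 0 of 7 past the limma threshold and 3 at an unadjusted p under 0.05 (Clec7a, Lilrb4a and Arg1). Leaving out placebo replicate 3, Gpnmb, Clec7a, Lilrb4a and Cd84 fell, Arg1 rose, Trem2 and Msr1 did not pass, and the class median was -0.64.

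Receptors of resident-type macrophages also went several ways. Stab1 and Mrc1 encode the scavenger receptor stabilin-1 and the mannose receptor, which sinusoidal and lymphatic endothelium share with macrophages. Stab1 measured 7.55, 7.57 and 6.51 with placebo and 6.42, 5.49 and 6.28 with E2. The groups met without overlap, and the difference was -1.15 log2 (SE 0.37, adjusted p = 0.216). Mrc1 differed by -0.89 (adjusted p = 0.354), and Folr2, a folate receptor of perivascular macrophages, by -0.20 (adjusted p = 0.849). These 3 genes fell without placebo replicate 3, by 1.5, 1.26 and 0.73. Lyve1, the hyaluronan receptor of lymphatic vessels and of some resident macrophages, measured 5.01, 5.69 and 6.21 with placebo and 6.13, 5.82 and 6.80 with E2. The groups overlapped, and the difference was 0.62 log2 (SE 0.37, adjusted p = 0.467) or 0.90 without placebo replicate 3 (adjusted p = 0.0941). Beside it, Prox1 and Flt4, which are used as markers of lymphatic endothelium, differed by 0.12 and -0.50 log2 (adjusted p = 0.559 and 0.0555). The part of lymphatic vessels in the Lyve1 values was not tested.

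Cd163, the haemoglobin scavenger receptor, measured 5.67, 6.06 and 5.52 with placebo and 6.08, 5.33 and 6.06 with E2, a difference of 0.07 log2 (95% confidence interval -0.54 to 0.68). The groups overlapped, with an SD of 0.28 among the placebo tumours and 0.43 among the E2 tumours (n = 3). Timd4, a receptor for dying cells, lay between 3.95 and 4.41 and was below the lower quartile of genes on 5 of 6 arrays (quartiles 4.22 to 4.39), and its difference was -0.24 (adjusted p = 0.352). Vsig4, a complement receptor, lay below that quartile on 2 arrays and differed by 0.25, and Marco, another scavenger receptor, lay at 4.39 to 4.52 on every array and differed by -0.03. The class median was -0.11 log2 with all arrays and -0.10 without placebo replicate 3, with 0 of 8 past the limma threshold, 1 (Stab1) at an unadjusted p under 0.05, and 3 of 8 that fell without that array.

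Of the 4 receptors that monocytes and granulocytes use to respond to growth factors and chemokines, all had lower means under E2, and 1 (Csf3r) passed the test with all arrays. Csf3r, the receptor for granulocyte colony-stimulating factor, measured 5.31, 5.32 and 5.13 with placebo and 4.39, 4.49 and 4.31 with E2. The replicates of each group were close and the groups lay apart. On every array Csf3r lay below the median gene. Its E2 values lay only just above the lower quartiles of genes on those arrays (4.31, 4.22 and 4.23). The fall of Csf3r was 1.81-fold (difference -0.86 log2, SE 0.10, limma adjusted p = 0.0214) and had the smallest p of the 39. Ccr2, the chemokine receptor that brings monocytes out of the bone marrow, measured 4.74, 5.30 and 4.99 with placebo and 4.32, 4.17 and 4.46 with E2, with 1 E2 value below the lower quartile. Its difference was -0.69 (SE 0.17, adjusted p = 0.123). Csf2rb, the shared beta chain of the interleukin 3 and granulocyte-macrophage colony-stimulating factor receptors, differed by -0.67 (adjusted p = 0.126), with separate groups and its highest value in placebo replicate 3. Cx3cr1, the fractalkine receptor, had overlapping groups and differed by -0.55 (adjusted p = 0.511). All 4 fell without placebo replicate 3.

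The 3 calls made with all arrays kept their direction but not their threshold when other arrays were left out. For Ptprc, Ctss and Csf3r the log2 differences ranged from -1.23 to -1.01, -1.15 to -0.95 and -0.92 to -0.81 over the 6 fits that each left out 1 array. All 3 passed without placebo replicate 3. Leaving out placebo replicate 1 or 2, or E2 replicate 1, 2 or 3, gave 0 members that fell at a limma adjusted p under 0.05, and 9 to 15 that were lower at an unadjusted p under 0.05. Of the 39 genes 34 kept their direction whichever array was left out, 31 of them lower and 3 higher. The exact two-sided permutation test of a single gene gave p = 0.10, the smallest that 3 arrays against 3 allow, for each of the 16 genes with separate groups.

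**Figure D3:**
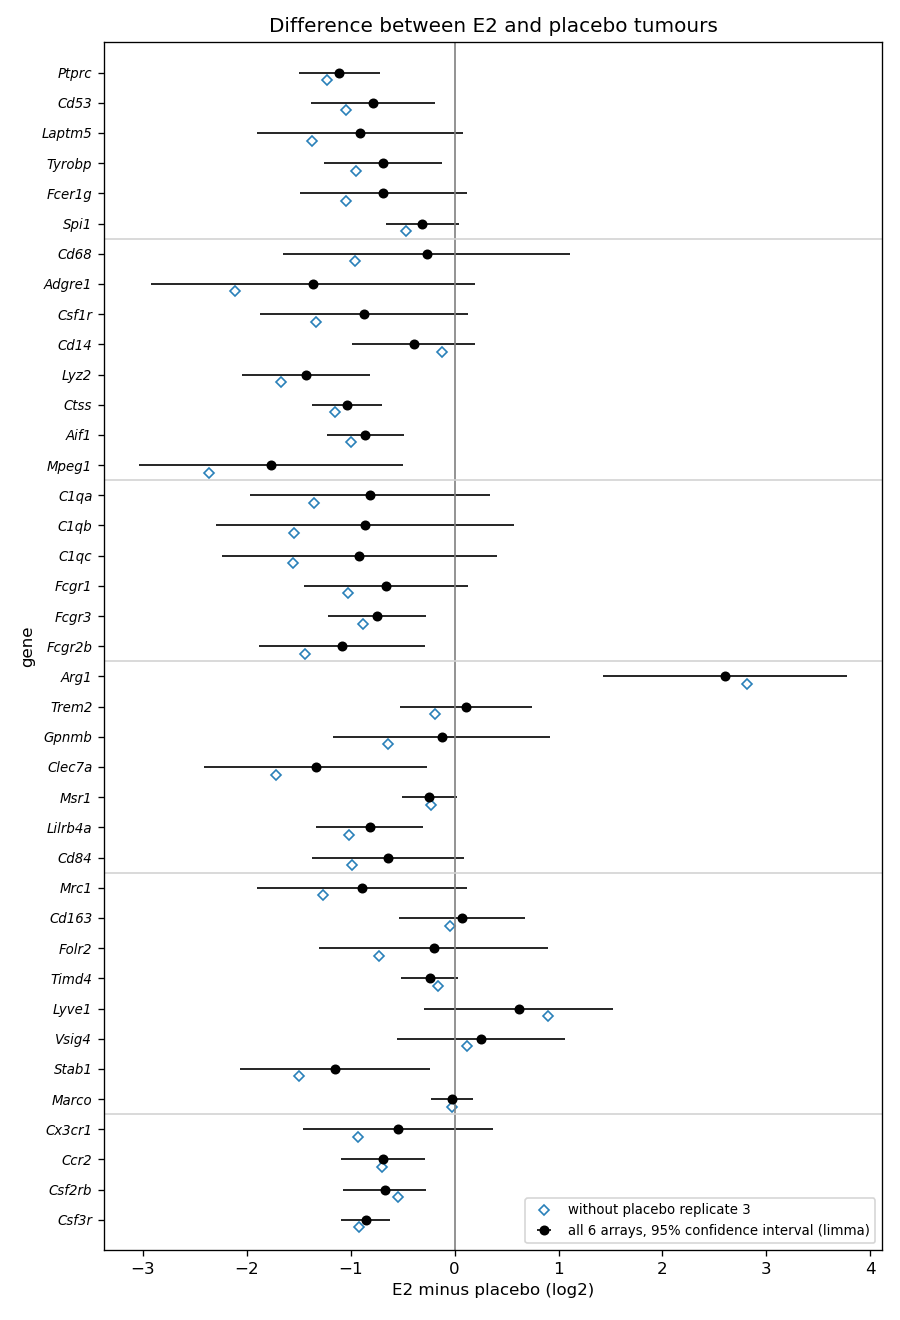
Black points show E2 minus placebo in log2 units for each of the 39 genes with the limma 95% confidence interval over all 6 arrays, open diamonds the same difference without placebo replicate 3, and grey lines separate the classes. Most diamonds lie left of the points, and the intervals of Cd68, Adgre1 and the C1q genes are wide while those of Csf3r, Ctss and Ptprc are narrow.

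The classes were then set against each other within each array, which removes a shift common to all of them. The mean of the activation genes minus the mean of the pan-macrophage genes was -2.12, -1.60 and -1.49 in the placebo tumours and -0.95, -0.62 and -0.84 in the E2 tumours. Without Arg1 the same quantity was -2.01, -1.70 and -1.70 with placebo and -1.47, -1.17 and -1.29 with E2. The E2 tumours lay above the placebo tumours both times, so the separation of the groups did not rest on Arg1. For the resident-type genes the difference from the pan-macrophage genes was -2.38, -1.99 and -1.59 with placebo and -1.19, -1.26 and -1.10 with E2, also without overlap. The pan-macrophage genes therefore lay lower under E2 by 0.93 log2 units relative to the activation genes, by 0.49 relative to the activation genes without Arg1, and by 0.80 relative to the resident-type genes. The classes also differed in level. The class means over the arrays were 6.36 to 7.95 for pan-macrophage, 5.41 to 6.29 for activation and 5.10 to 5.89 for resident-type genes. Timd4, Vsig4 and Marco held values near or below the lower quartile of genes, where changes are compressed and a fall can hardly show. The part of this compression in the contrasts was not tested. These are descriptions of chosen classes, with no test.

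Single genes were also set against Csf1r within each array, and they did not divide by class. Trem2 minus Csf1r was -1.99, -2.36 and -1.70 with placebo and -1.16, -0.60 and -1.34 with E2, so each E2 tumour held more Trem2 signal for its Csf1r signal than each placebo tumour. Gpnmb minus Csf1r went from -2.24 to -1.49 and Cd163 minus Csf1r from -2.11 to -1.17 in the group means, again without overlap. The pan-macrophage gene Cd68 did likewise, since Cd68 minus Csf1r was 0.47, 0.08 and -0.40 with placebo and 0.48, 0.91 and 0.56 with E2, a difference of 0.60 log2 that comes near the 0.75 of Gpnmb. Mpeg1 minus Csf1r was 0.19, -0.21 and -0.42 with placebo and -0.86, -1.09 and -1.18 with E2, so Mpeg1 was lower even relative to Csf1r. In Adgre1 minus Csf1r and in Lyve1 minus Csf1r the groups overlapped.

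Growth factors and chemokines that act on these cells were examined next. Of 10 such genes 0 passed in limma with all arrays, 2 were lower and 2 higher at an unadjusted p under 0.05, and 3 fell and 2 rose without placebo replicate 3. Ccl2, the ligand of Ccr2, measured 5.36, 5.31 and 6.03 with placebo and 6.74, 7.25 and 7.34 with E2. All E2 tumours were higher, while its receptor gene was lower in all of them. The Ccl2 difference was 1.54 log2, or 2.91-fold (SE 0.25, adjusted p = 0.0534), and 1.77 without placebo replicate 3 (adjusted p = 0.000842). Ccl8, another monocyte chemokine, measured 5.70, 5.52 and 4.49 with placebo and 4.20, 4.02 and 4.17 with E2, a difference of -1.10 (adjusted p = 0.176). Cxcl12, the ligand of Cxcr4, differed by -0.79 (SE 0.18, adjusted p = 0.109). Csf1, the growth factor of macrophages, differed by -0.30 (adjusted p = 0.686) and fell by 0.69 without placebo replicate 3.

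Other genes of the myeloid programme gave a mixed picture. Of 22 genes for phagocyte integrins, oxidase subunits and kinases, 21 had lower means under E2, 2 fell (Coro1a and Rac2) and 0 rose, and 14 fell without placebo replicate 3. Coro1a, an actin regulator of leukocytes, fell by 0.63 on the log2 scale (limma adjusted p = 0.0429) and Rac2, a GTPase needed by the phagocyte oxidase, by 0.55 (adjusted p = 0.0476). Cybb, the catalytic oxidase subunit, measured 8.12, 8.10 and 6.52 with placebo and 6.42, 5.75 and 6.49 with E2. Of 11 myeloid transcription factors Cebpb rose (difference 0.56 log2, SE 0.09, limma adjusted p = 0.0488) and 0 fell, and 4 were lower at an unadjusted p under 0.05, while without placebo replicate 3, 4 fell and 1 rose.

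Lysosomal enzymes did not follow the pan-macrophage genes. The median difference of 16 such genes was 0.06 log2, with 1 that rose and 1 that fell. Ctsl, cathepsin L, measured 8.41, 8.58 and 7.87 with placebo and 9.73, 10.08 and 10.11 with E2, and rose by 1.69 on the log2 scale (limma adjusted p = 0.0290). Ctsc, which activates serine proteases of granules, fell by 0.89 (adjusted p = 0.0461). Ctss, the member described above, fell, so 3 cathepsin genes passed in different directions. Lysosomal enzymes are made by most cells, tumour cells included. Without placebo replicate 3, 3 of the 16 fell and 1 rose.

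Lists of classical and alternative activation had mean log2 levels of 4.72 to 5.20 and 4.77 to 5.12 over the 6 arrays. In limma 0 of 14 and 0 of 12 passed, with 3 and 3 lower and 1 and 1 higher at an unadjusted p under 0.05. With that array left out these counts were 3 lower and 1 higher, and 1 lower and 1 higher, past the threshold. Cd86, a costimulatory ligand, differed by -0.64 (SE 0.16, adjusted p = 0.134), and Ptgs2, the inducible cyclooxygenase, by 1.99 (SE 0.68, adjusted p = 0.235). Il4ra, the receptor for the cytokines that induce Arg1, measured 8.49, 8.48 and 8.75 with placebo and 9.28, 9.28 and 9.59 with E2, a difference of 0.81 log2 (SE 0.13, adjusted p = 0.0539). Cd209a, a lectin, differed by -0.54 (adjusted p = 0.0580). The 8 genes of a serous cavity macrophage list had 0 calls with all arrays and 0 at an unadjusted p under 0.05, and 1 rose without placebo replicate 3. Alox15 and Cd5l, its genes of smallest p, differed by -0.54 and -0.37, and Gata6 lay at 7.88 to 8.87 on every array, a gene that ovarian somatic and mesothelial cells also express.

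Markers of other cell types were set beside these values. Mean log2 levels were 4.11 to 4.71 with placebo and 4.0 to 4.08 with E2 for 11 neutrophil genes, and 4.18 to 4.49 and 4.02 to 4.15 for 13 T, B and NK cell genes, near the lower quartile of genes, with S100a8 and Cd3e at 4.23 to 4.97 and 4.55 to 5.10. The level was 4.76 to 4.81 and 4.52 to 4.71 for 8 dendritic cell genes. In limma none of these 3 lists held a gene past the threshold in either fit. With all arrays 0, 1 and 0 genes had an unadjusted p under 0.05 (in the order neutrophil, T, B and NK, dendritic), and 1, 2 and 1 without placebo replicate 3. Most genes of these lists still had a lower mean under E2, 10 of 11, 13 of 13 and 7 of 8 in that order. Over all genes 10306 of 19937 did. The median differences of the 3 lists were -0.21, -0.18 and -0.13 log2. Retnlg, Nkg7 and Cd83 had the smallest p of each, with differences of -0.69, -0.46 and -0.46. Thus Csf3r, which neutrophils carry in abundance, lay lower under E2 while the mean of the neutrophil list lay near the lower quartile of genes in both groups and was highest in placebo replicate 3.

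Mast cell genes also had their lowest placebo level in replicate 3. Cpa3, a mast cell protease, measured 6.42, 7.03 and 4.47 with placebo and 3.96, 4.03 and 4.27 with E2, and of 9 mast cell genes 0 passed in limma with all arrays, 6 were lower at an unadjusted p under 0.05, and 8 fell without placebo replicate 3. Mast cells also express Ptprc, Fcer1g, Laptm5 and Csf2rb. The mesothelial list was lowest of the placebo arrays there too, at 8.73, 8.86 and 7.33 with placebo and 6.25, 5.95 and 6.38 with E2, and 1 of its 8 genes fell with all arrays (Krt7, by 2.36, limma adjusted p = 0.00445) and 7 without placebo replicate 3. Mean levels of 15 endothelial genes were 5.59 to 5.71 with placebo and 5.28 to 5.57 with E2, and Kdr rose by 2.07 on the log2 scale (limma adjusted p = 0.0136) while 0 fell. Of these 15 genes 13 had a lower mean under E2, 8 were lower at an unadjusted p under 0.05, and 10 had every E2 value below every placebo value, against 11.4% of all genes. Leaving out placebo replicate 3 gave 5 that fell and 1 that rose. The part of these other cell types in the myeloid values was not tested.

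**Figure D4:**
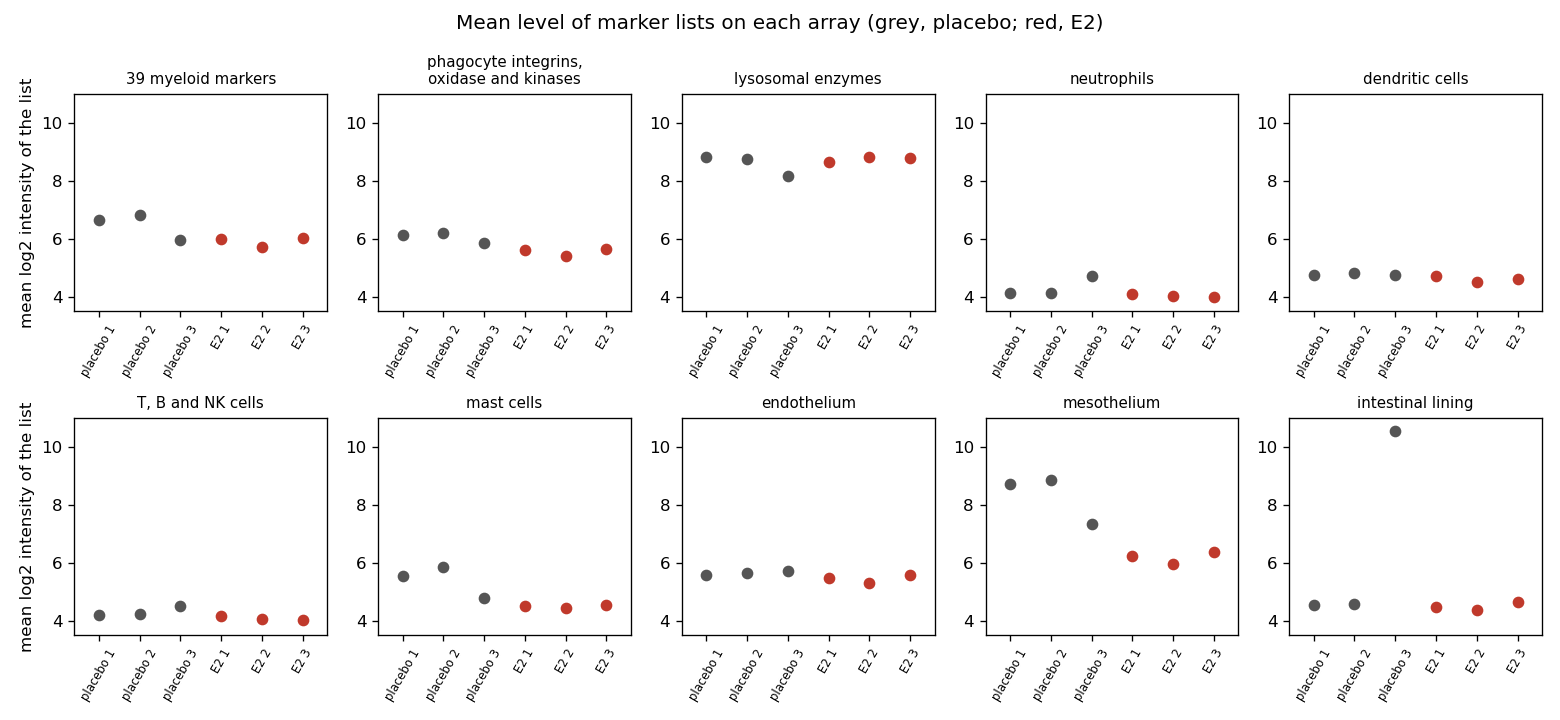
Each panel gives the mean log2 intensity of 1 gene list on each of the 6 arrays (grey, placebo; red, E2). The 39 myeloid markers, the mast cell list and the mesothelial list are highest in placebo replicates 1 and 2, the intestinal list stands at 10.57 in placebo replicate 3 alone, and neutrophil and T, B and NK cell lists lie between 4.0 and 4.71 on every array.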

How the data were processed

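RNA from 6 tumours was labelled as sense target and hybridised to whole-transcript arrays, per the labels' protocols. RMA, named in the submitters' processing notes, gave the log2 intensities that the authors deposited for each probe set. RMA compresses changes near background and sets the probe intensities of all arrays to 1 distribution. Strong signal in some genes of an array can therefore shift its others. The gene values used here still differed between arrays, with medians of 5.26 to 5.41 and upper quartiles of 6.41 to 6.72. For the software and annotation used, nothing is stated in the labels.

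Of 34760 probe sets, 21640 named 1 gene, 1321 several and 11799 are unnamed here. The brightest per gene was kept. E2 and placebo, grouped by sample title, were tested in limma 3.58.1 by lmFit and eBayes (R 4.3.3) on all 19937 genes, with p adjusted by Benjamini and Hochberg and 0.05 as the threshold. The p-values measure the spread between tumours. In simulated data on the same 19937 genes, 68.0% of log2 changes of 1 and 88.0% of changes of 2 were recovered, with 10 false calls. The simulated noise was independent between genes and held no array that stood apart as placebo replicate 3 did. These figures therefore need not hold for the real arrays.

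Members, classes and 17 lists of neighbouring genes (198 of 206 symbols measured) were chosen with earlier results of these data known. Described in full were Cd68, Adgre1, Csf1r, the called members and the 2 of smallest p in each class, and from each list up to 4 called genes or the 2 of smallest p. Other genes given by value were chosen after their values were seen. Alternatives were leaving out each array, a replicate block, a filter at the 25th percentile, the mean of probe sets, quantile normalization, median centring, trended robust variance, array weights and an adjusted p under 0.10.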

Additional observations from a re-analysis of the deposited data

How the results depend on the processing

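The 15 genes described in full were followed through 13 alternatives, and 14 kept their direction in all of them. Most of the 15 were chosen for a small p in these data, so this count is no separate support. The replicate block, the filter, the mean of probe sets and the trended robust variance leave a member's difference unchanged by construction. Among the 15, Cd68 alone reversed, ranging from -0.96 to 0.11 log2 without each array in turn. It was 0.11 log2 without placebo replicate 1 and 0.04 without placebo replicate 2. Outside the 15, Trem2, Gpnmb, Folr2 and Cd163 also changed sign when 1 array was left out. Leaving out 1 array gave 0 to 30 members that fell and 0 to 1 that rose, and over all genes 0 to 1039 lower and 31 to 1276 higher. The replicate numbers do not mark pairs in the labels, and deviations of samples with the same number correlated at -0.03, -0.18 and -0.13 across genes. With the replicate number as a block, 0 members were called (15 lower and 2 higher at an unadjusted p under 0.05), and 0 genes were lower and 10 higher in all. Array weights gave 25 members that fell and 1 that rose, with 760 genes lower and 1026 higher. At an adjusted p under 0.10, 5 members were lower and 1 higher, with 193 and 543 genes. Median centring gave 342 higher genes. The median of the activation class ranged from -0.64 to -0.17 log2 without each array in turn. The medians of the other 5 classes moved by less than the pooled SD between replicates, which includes placebo replicate 3. Without that array the complement C1q and Fc receptor median still went from -0.84 to -1.40 log2, a larger shift than that of the activation class (-0.24 to -0.64). The pan-macrophage median went from -0.95 to -1.24. The other settings (the 25th percentile filter, the mean of probe sets, repeated quantile normalization and trended robust variance) called 3 or 4 members, all lower. The filter removed 1 member. The cause of each shift was not tested.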

Other observations

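Lists of fibroblasts and pericytes, of adipocytes and of liver and Kupffer cells were also examined. Of 12 fibroblast and pericyte genes 0 passed in limma with all arrays, 3 were lower and 1 higher at an unadjusted p under 0.05, and 7 fell and 1 rose without placebo replicate 3. Col3a1 and Rgs5 had the smallest p, with differences of -1.40 and -1.24 log2. Among 7 adipocyte genes Adipoq fell by 0.85 on the log2 scale (limma adjusted p = 0.0460), and 5 fell and 1 rose without that array. Of 7 liver and Kupffer cell genes 0 passed in limma, 1 was lower at an unadjusted p under 0.05, and Cyp2e1 and Ahsg differed by -1.88 and -0.26 log2. Without placebo replicate 3 Cyp2e1 fell by 1.71 (limma adjusted p = 0.0136), the 1 gene of that list past the threshold.

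Some inflammatory genes were high in placebo replicate 3 while most macrophage markers were low there. Nos2 measured 6.68 in it against 4.40 to 4.48 on the other arrays, and Il1b 6.45 against 4.46 to 4.78. Chil3, made by alternatively activated macrophages and neutrophils, measured 5.22 against 3.70 to 4.07. The acute phase gene Saa3 varied most, from 5.01 in placebo replicate 1 to 9.62 in placebo replicate 3, with the E2 tumours at 7.38 to 8.39. In the intestinal list Lyz1 and Apoa4 had the smallest p, with differences of -3.04 and -2.37 log2, and 1 of its 15 genes, Lyz1, fell without placebo replicate 3.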
